A study of Mus musculus with 36 samples.

Results

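Ikzf1 and Ikzf3 encode Ikaros and Aiolos, related zinc finger transcription factors of lymphocytes, and their chromatin accessibility was followed here peak by peak. A consensus ATAC-seq peak was taken as a member when its midpoint lay nearest to a protein-coding transcription start site (TSS) of Ikzf1 or Ikzf3, or when it overlapped either gene body. This gave 46 of the 71509 peaks in the table, 27 for Ikzf1 and 19 for Ikzf3. Of the 27 Ikzf1 peaks, 21 were nearest to an Ikzf1 start, 6 lay inside the gene but nearest to Fignl1, and 4 of the 27 lay outside the gene body. Of the 19 Ikzf3 peaks, 8 were nearest to the Ikzf3 start and 11 lay inside the gene but nearest to Grb7.

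Mouse spleen CD4+ T cells were profiled in 36 libraries, 3 in each of 12 groups. In the HP1α line (Cbx5), knockout (KO) mice came from floxed mice crossed with CMV-cre, a deleter active in all tissues, and were compared with wild-type (WT) littermates. In the HP1γ line (Cbx3), floxed mice carried Cd4-cre, which acts in T cells, and floxed littermates without Cre served as WT controls. The mice were 6 to 12 weeks old and of mixed background. In each line and genotype the groups were naive CD4+ T cells before transfer, conventional T cells (Tconv) recovered 3 weeks later, and Tconv recovered from hosts that also received ex vivo expanded wild-type regulatory T cells (Treg). The hosts of both Tconv groups were lethally irradiated C57BL/6 mice given syngeneic marrow mixed with semi-allogeneic B6D2F1 marrow, and the recovered cells were sorted as allospecific by TCR Vβ6. Tconv and naive libraries therefore differ in activation, time, host and sort together, and these cannot be told apart. Whether replicate libraries came from separate mice is not given in the labels, so p-values measure the spread between libraries, which may be technical.

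Depth, as reads counted in peaks, lay between 1.49 and 96.8 M with a median of 54.8 M. The HP1α groups with Treg were uneven. The study left out 1 WT and 2 KO libraries of low quality (3.2 to 7.12 M reads). The kept ones held 12.7 and 1.49 M reads for WT and 50.7 M for KO, so 1 deep KO library stands against shallow WT libraries. In a list of 7 CD4 T cell markers 6 genes had a peak at their TSS, with a mean over the list of 6.20 to 7.50 log2 CPM across the groups. Cd79a, Cd79b and Ms4a1, which mark B cells, had no peak at their TSS, and the list means of B cell and myeloid genes ranged from 1.84 to 3.22 and from 2.75 to 3.24. Single members moved more than these means: from naive cells to the Tconv groups Pax5 of the B cell list went from between 1.35 and 1.63 to between 2.37 and 3.92, Cebpa of the myeloid list from between 2.00 and 2.44 to between 3.85 and 5.38, and Itgam of the same list from between 2.08 and 2.56 to between 0.12 and 1.69. Group means of Cd8b1 were 5.04 to 5.07 in naive cells and 1.74 to 2.91 in the Tconv groups. Those of Klrk1, of an NK cell list, were -2.27 to -1.32 in naive cells and 1.52 to 3.35 in Tconv without Treg. Cd8a, Klrb1c and Ncr1, the other members of the CD8 T cell and NK cell lists, had no peak at their TSS. With Treg, Klrk1 stood at 2.41 in HP1γ WT and 0.12 in HP1γ KO. In the HP1α line, where 2 WT libraries and 1 KO library with Treg were kept, it stood at -1.72 in WT and 2.69 in KO. The lowest library at this peak stood at -4.59, near the floor of the scale. The Foxp3 start, in a peak shared with Ppp1r3f, ranged from 6.04 to 7.12, and the part of these markers in the results was not tested. The TSS peak of Cd4 stood at 9.22 to 9.46 in the HP1γ KO groups, which carry Cd4-cre, and at 6.61 to 6.87 in the HP1γ WT groups. Peaks at the starts of Cbx5 and Cbx3 do not report on a deletion inside the genes and were not used to check the genotypes.

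Ikaros family proteins bind DNA through zinc fingers near one end and pair with each other through fingers at the other end. They recruit the NuRD chromatin remodelling complex and can repress or activate their targets. In human cells Ikaros and Aiolos are degraded through the cereblon ubiquitin ligase when drugs of the thalidomide class are present. Ikaros is needed for lymphocyte development and restrains activation of mature T cells. Aiolos is known for B cell maturation and, in CD4 T cells, for repression of Il2 during Th17 differentiation. Accessibility of a gene's regulatory elements is not its expression, and in bulk samples a smaller share of cells with an open element cannot be told apart from weaker opening in each cell.

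Ikzf1 (ENSMUSG00000018654.20) lies on the plus strand at chr11:11634980-11723186 of GRCm39, spans 88.2 kb and has 24 coding transcripts with 6 distinct starts. Ikzf3 (ENSMUSG00000018168.9) lies on the minus strand at chr11:98355728-98436857, spans 81.1 kb and has 1 coding transcript. Peaks are named below by the distance of their midpoint from the canonical TSS in the direction of transcription, so that the +18.7 kb peak of Ikzf3 lies 18.7 kb into the gene.

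The sequences shown are those of elements on which the comparisons turn. They are the central 300 bases of peaks, and for the Ikzf3 start the 250 bases upstream of the TSS, all read from the GRCm39 genome and printed 5′ to 3′ on the strand of the gene. Capitals mark matches, on either strand, to 6 short motifs: the Ikaros core TGGGAA, AP-1 TGANTCA, TCF/LEF ATCAAAG, ETS CCGGAAG, RUNX TGTGGTT and NFAT TGGAAA. A match describes the letters only. The first line is the Ikzf3 promoter (chr11:98436627-98436876, minus strand), which has a GC content of 70.8% and an NFAT match at base 19.
Ikzf3 promoter: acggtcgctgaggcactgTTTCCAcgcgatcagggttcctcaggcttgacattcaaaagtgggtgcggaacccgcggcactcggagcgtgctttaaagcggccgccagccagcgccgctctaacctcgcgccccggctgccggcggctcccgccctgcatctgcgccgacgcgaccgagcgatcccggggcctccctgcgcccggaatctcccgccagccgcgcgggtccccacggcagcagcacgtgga
Next come 2 elements upstream of Ikzf1, the -17.8 kb peak (chr11:11617716-11618015, plus strand) and the -15.8 kb peak (chr11:11619751-11620050, plus strand), each with 1 Ikaros core on the opposite strand.
Ikzf1 -17.8 kb: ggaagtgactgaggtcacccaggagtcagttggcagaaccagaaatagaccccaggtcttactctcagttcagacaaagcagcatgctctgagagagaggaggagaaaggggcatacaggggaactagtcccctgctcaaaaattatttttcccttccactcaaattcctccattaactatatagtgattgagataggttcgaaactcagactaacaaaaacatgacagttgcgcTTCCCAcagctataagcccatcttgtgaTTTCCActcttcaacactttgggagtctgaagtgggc
Ikzf1 -15.8 kb: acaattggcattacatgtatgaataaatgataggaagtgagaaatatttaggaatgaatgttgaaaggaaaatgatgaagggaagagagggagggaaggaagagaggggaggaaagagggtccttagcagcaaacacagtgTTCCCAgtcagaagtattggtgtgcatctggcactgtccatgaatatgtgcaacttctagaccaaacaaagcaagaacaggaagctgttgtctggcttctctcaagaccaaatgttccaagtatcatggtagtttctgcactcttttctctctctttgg
The remaining lines are elements inside Ikzf3. The +18.7 kb peak lies in intron 1 (chr11:98417791-98418090, minus strand) and holds 1 RUNX match. The +70.6 kb peak (chr11:98365856-98366155, minus strand) and the +73.2 kb peak (chr11:98363231-98363530, minus strand) lie in intron 7. The former holds an Ikaros core at base 74 and a RUNX match at base 90, and the latter an NFAT match at base 3.
Ikzf3 +18.7 kb: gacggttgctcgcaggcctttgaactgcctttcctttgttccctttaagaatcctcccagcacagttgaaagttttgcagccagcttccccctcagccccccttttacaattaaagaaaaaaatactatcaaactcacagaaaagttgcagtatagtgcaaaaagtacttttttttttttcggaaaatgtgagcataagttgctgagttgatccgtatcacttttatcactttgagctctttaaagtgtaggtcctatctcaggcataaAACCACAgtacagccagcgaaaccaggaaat
Ikzf3 +70.6 kb: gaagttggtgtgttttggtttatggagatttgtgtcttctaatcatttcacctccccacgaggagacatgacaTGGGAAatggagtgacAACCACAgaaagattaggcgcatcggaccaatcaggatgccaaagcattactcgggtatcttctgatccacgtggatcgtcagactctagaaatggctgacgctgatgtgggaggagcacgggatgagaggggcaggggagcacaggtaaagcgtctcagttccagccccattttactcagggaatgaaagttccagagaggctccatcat
Ikzf3 +73.2 kb: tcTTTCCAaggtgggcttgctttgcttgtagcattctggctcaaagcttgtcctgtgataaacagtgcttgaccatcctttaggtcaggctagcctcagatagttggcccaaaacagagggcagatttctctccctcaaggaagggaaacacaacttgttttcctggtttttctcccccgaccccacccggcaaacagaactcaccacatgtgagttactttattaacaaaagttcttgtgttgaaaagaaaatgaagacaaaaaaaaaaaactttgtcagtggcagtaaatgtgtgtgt
Over the central 300 bases of all 46 peaks of both genes, 14 held the Ikaros core, against 22.2% of the 71509 windows of the whole table. NFAT matches were found in 12 (23.7% of all windows), RUNX in 7 (12.9%), AP-1 in 5 (13%), TCF/LEF in 5 (5.76%) and ETS in 0 (4.39%).

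The first question was how the elements of both genes differed between naive cells and Tconv. At Ikzf3, elements towards the end of the gene body opened in Tconv of both lines and genotypes while an intron 1 element closed. Ikzf1 showed fewer changes, of which the closing of the -17.8 kb element was shared by all 4 comparisons. A peak was called when edgeR's quasi-likelihood test gave a Benjamini-Hochberg adjusted p under 0.05 over all peaks and an absolute log2 fold change above 1. HP1α WT Tconv had 5 Ikzf3 peaks called higher and 2 lower than naive cells, beside 1 higher and 3 lower at Ikzf1, where 24.9% of all peaks were called higher and 17.5% lower. In HP1α KO cells 7 Ikzf3 peaks were called higher and 4 lower, and 0 Ikzf1 peaks higher and 2 lower (23.5% and 19.0% of all peaks). In HP1γ WT cells 8 Ikzf3 peaks were called higher and 3 lower, and 1 Ikzf1 peak higher and 3 lower (24.5% and 22.0%). In HP1γ KO cells 9 Ikzf3 peaks were called higher and 1 lower, and 1 Ikzf1 peak higher and 2 lower (22.4% and 20.6%). Read against those shares, the Ikzf1 counts lay below what all peaks showed, at 7.41% to 14.8% of its peaks against 42.5%, 42.6%, 46.5% and 43.0% of all peaks in the order above, whereas Ikzf3 lay between 36.8% and 57.9%. The median log2 fold change of the Ikzf3 peaks was 0.27, 0.37, 0.68 and 0.75 in HP1α WT, HP1α KO, HP1γ WT and HP1γ KO, beside -0.03, -0.05, 0.08 and 0.06 over all peaks. For Ikzf1 the medians were -0.32, -0.23, -0.04 and -0.13.

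**Figure D1:**
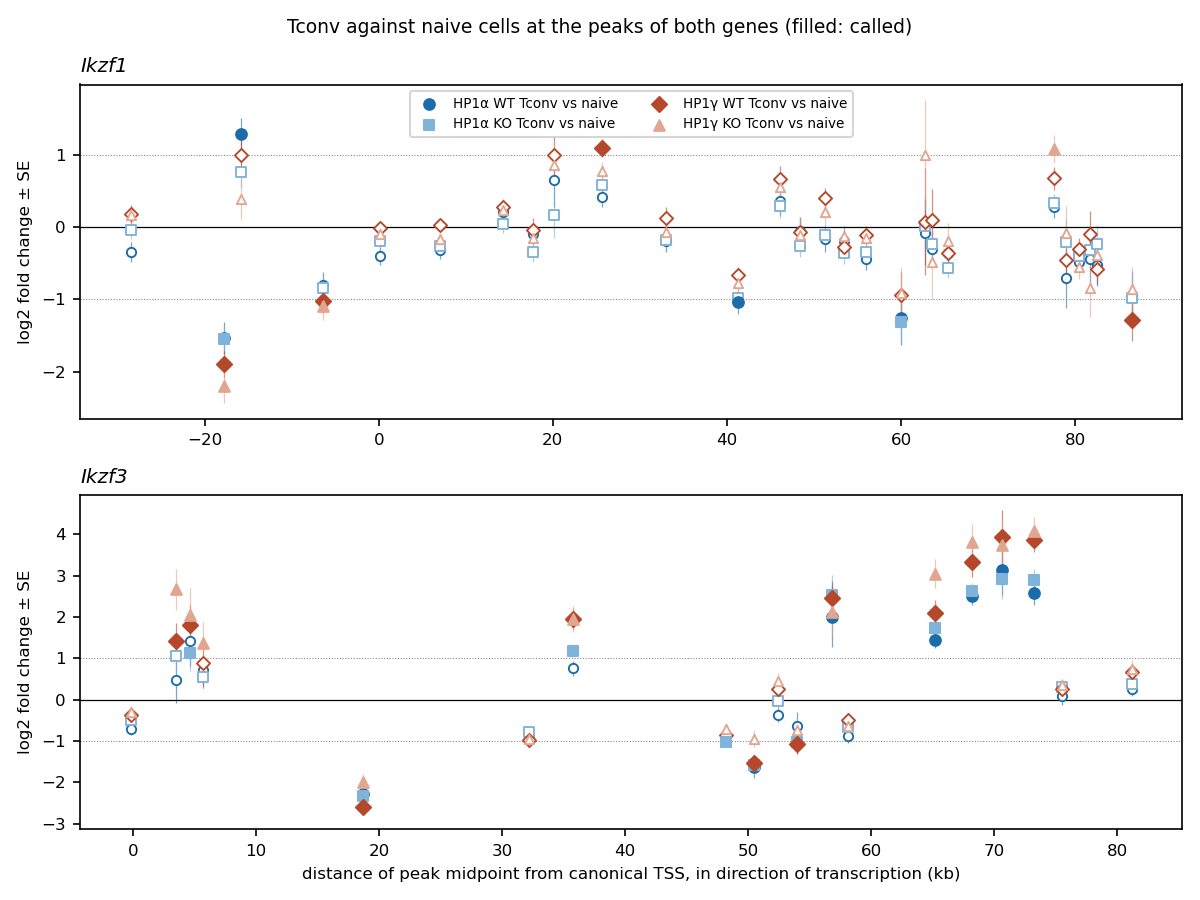
Log2 fold change (± SE) of Tconv against naive cells at each peak, plotted by the distance in kb of its midpoint from the canonical TSS, with the 4 comparisons as separate symbols and called peaks filled. Filled symbols lie above 1 from +65.2 to +73.2 kb of Ikzf3 in every comparison and below -1 at +18.7 kb of Ikzf3 and -17.8 kb of Ikzf1.

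At Ikzf3 5 peaks were called higher in all 4 comparisons, where 17.7% of all peaks were. They were the +56.8 kb peak at exon 5 and 4 consecutive peaks at +65.2 kb (intron 6), +68.2 kb (exon 7), +70.6 kb and +73.2 kb (intron 7). All 5 were members through overlap with the Ikzf3 gene body and lay nearest to the coding start of Grb7. Which gene they act on was not tested. The exon 7 peak (chr11:98367511-98369300) had log2 CPM of 0.50, 1.02 and 0.97 in the 3 HP1α WT naive libraries and 3.51, 3.10 and 2.84 in the HP1α WT Tconv libraries. In the HP1γ line the same peak had 0.84, -0.09 and 0.67 in WT naive cells and 3.20, 3.63 and 4.30 in WT Tconv. All Tconv libraries lay above all naive libraries, with log2 fold changes of 2.51 ± 0.22 (SE, adjusted p = 3.21e-08, edgeR) and 3.34 ± 0.38 (adjusted p = 2.85e-07). KO cells gave 2.63 ± 0.19 (adjusted p = 2.55e-09) in the HP1α line and 3.81 ± 0.43 (adjusted p = 3.71e-07) in the HP1γ line. In HP1γ KO cells the naive libraries held 0.52, 0.69 and 0.37 and the Tconv libraries 3.39, 4.31 and 4.62.

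The +73.2 kb peak in intron 7 was near 0 log2 CPM in naive cells, with -0.05, -0.05 and -0.39 in HP1γ WT and -0.01, 0.28 and -0.55 in HP1γ KO libraries. Tconv held 3.30, 3.51 and 3.90 in HP1γ WT and 3.44, 3.58 and 4.08 in HP1γ KO. Every Tconv library was higher than every naive library, by 3.87 ± 0.29 (SE, log2, adjusted p = 1.09e-09, edgeR) in WT and 4.07 ± 0.34 (adjusted p = 8.76e-09) in KO. In the HP1α line the log2 fold changes were 2.59 ± 0.31 (adjusted p = 1.2e-06) in WT and 2.90 ± 0.27 (adjusted p = 4.6e-08) in KO. HP1γ Tconv recovered with Treg stayed at that level, with 3.56, 3.79 and 3.0 in WT and 3.54, 3.32 and 3.47 in KO.

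The neighbouring +65.2 kb peak in intron 6 was already open in naive cells, at 2.51, 2.31 and 2.40 log2 CPM in HP1γ WT libraries and 1.50, 2.22 and 1.91 in HP1γ KO libraries. In Tconv it held 3.88, 4.23 and 5.02 in WT and 4.28, 4.94 and 5.26 in KO, so neither genotype had overlapping naive and Tconv libraries. Its log2 fold changes were 1.44, 1.74, 2.10 and 3.05 in HP1α WT, HP1α KO, HP1γ WT and HP1γ KO. The +70.6 kb peak had 5 to 26 reads in any naive library and 20 to 368 in any Tconv library, with log2 fold changes of 3.13 ± 0.59, 2.93 ± 0.50, 3.94 ± 0.64 and 3.74 ± 0.58 (SE) in the same order. The small +56.8 kb peak held 6 to 24 reads in any naive library and 7 to 191 in any Tconv library. Its call in HP1α WT was lost without WT Tconv replicate 1 (2.39) or 2 (1.91) or WT naive replicate 2 (2.01), and in HP1γ KO without KO naive replicate 3 (1.62). The HP1α WT call was also lost with trended offsets (1.26) and with depth as a covariate (1.88). Together the 4 adjacent peaks from +65.2 to +73.2 kb, grouped after their values were seen, took 2.93% to 5.08% of the Ikzf3 reads in the 12 naive libraries and 15.8% to 30.4% in the 12 Tconv libraries without Treg. In the 9 kept libraries with Treg the share was 21.7% to 33.7%.

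**Figure D2:**
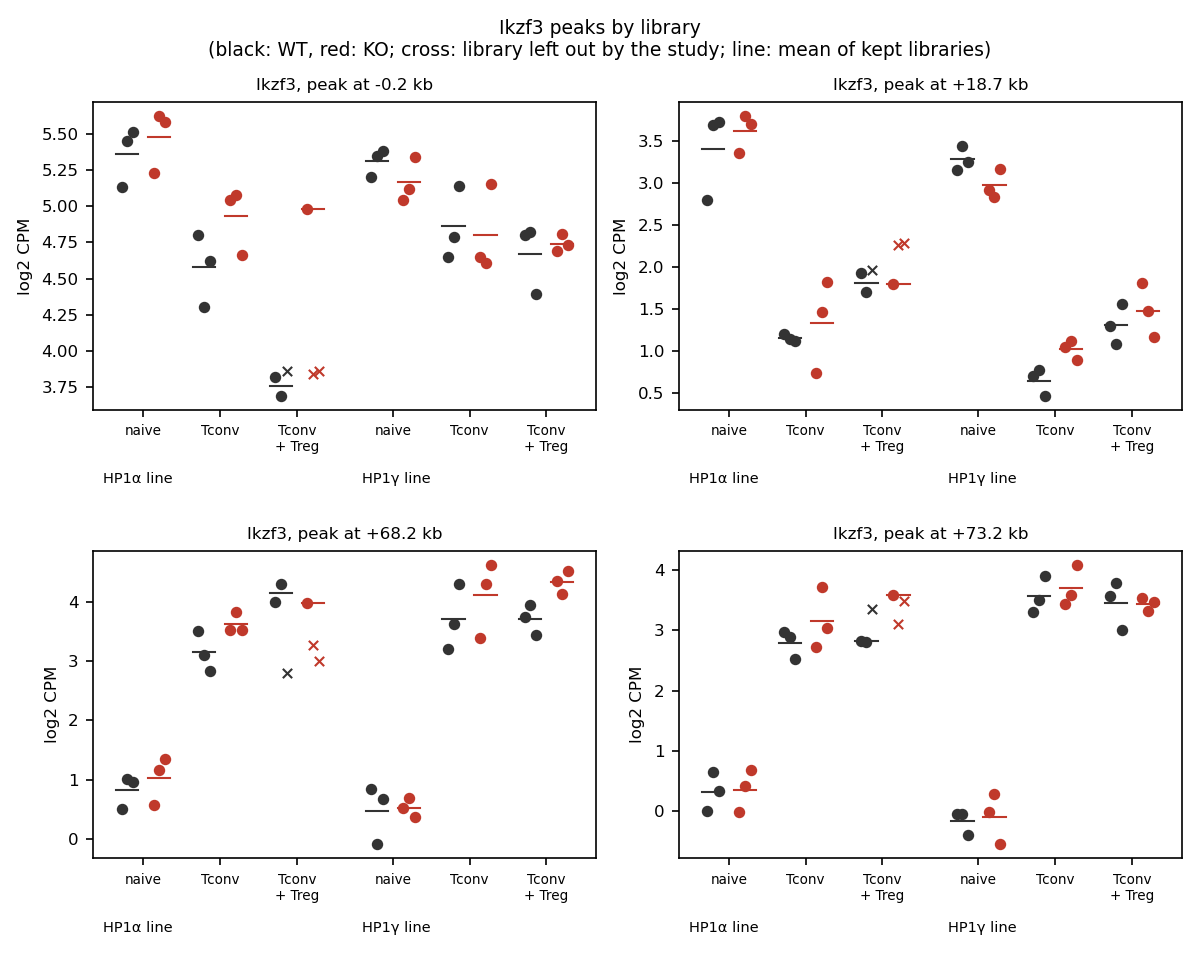
Log2 CPM of 4 Ikzf3 peaks in each library, by HP1 line and condition, with WT in black, KO in red, crosses for libraries the study left out and lines for the mean of kept libraries. The +68.2 and +73.2 kb peaks rise from between -0.55 and 1.35 in naive cells to between 2.52 and 4.62 in Tconv without Treg, the +18.7 kb peak moves the other way, and the TSS peak at -0.2 kb moves less.

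The intron 1 element at +18.7 kb of Ikzf3 (chr11:98417441-98418440) went the opposite way. Naive libraries held 2.80, 3.69 and 3.72 log2 CPM in HP1α WT and 3.15, 3.44 and 3.25 in HP1γ WT. Tconv held 1.2, 1.14 and 1.12 in HP1α WT and 0.70, 0.78 and 0.47 in HP1γ WT. All Tconv libraries were lower than all naive libraries, with log2 fold changes of -2.29 ± 0.30 (SE, adjusted p = 3.09e-06, edgeR) and -2.59 ± 0.17 (adjusted p = 1.63e-10). KO cells gave -2.33 ± 0.25 (adjusted p = 1.92e-07) in the HP1α line and -1.99 ± 0.19 (adjusted p = 3.68e-08) in the HP1γ line. This was the one Ikzf3 peak called lower in all 4 comparisons, where 14.6% of all peaks were. The +50.5 kb peak in intron 3 was called lower in 3 of them, with log2 fold changes of -1.62 in HP1α WT, -1.57 in HP1α KO and -1.53 in HP1γ WT, and had -0.94 in HP1γ KO.

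The intron 3 element at +35.8 kb of Ikzf3 opened in Tconv of the HP1γ line. It held 2.06, 2.48 and 2.54 log2 CPM in WT naive libraries and 3.89, 4.29 and 4.60 in WT Tconv, without overlap, for a log2 fold change of 1.96 ± 0.26 (SE, adjusted p = 2.32e-06, edgeR). HP1γ KO gave 1.95 ± 0.32 (adjusted p = 3.71e-05), from 2.00, 2.04 and 2.24 to 3.88, 3.81 and 4.26. In the HP1α line the change was 1.19 ± 0.16 (adjusted p = 3.12e-06) in KO and 0.76 (adjusted p = 0.00163) in WT, where it missed the fold threshold. The lines were not tested against each other.

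At the Ikzf3 start, in the peak that covers the promoter printed above, naive cells were higher than Tconv by less than the fold threshold. The HP1α WT libraries held 5.13, 5.45 and 5.51 log2 CPM in naive cells and 4.80, 4.30 and 4.62 in Tconv, without overlap. Log2 fold changes were -0.70 ± 0.16 (SE, adjusted p = 0.00112, edgeR) in HP1α WT, -0.49 ± 0.14 (adjusted p = 0.00685) in HP1α KO, -0.38 ± 0.15 (adjusted p = 0.0262) in HP1γ WT and -0.30 ± 0.16 (adjusted p = 0.111) in HP1γ KO. The summed reads of all 19 Ikzf3 peaks moved little, with group means between 7.28 and 7.94 log2 CPM.

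The summed reads of the 27 Ikzf1 peaks had group means between 8.77 and 9.53 log2 CPM. Per kb of peak, its canonical TSS peak held 23.7 CPM in HP1α WT naive cells, beside 17.7 CPM per kb at the Ikzf3 TSS peak. A 10370 bp peak in intron 1 at +7.0 kb, which holds further annotated starts, had 13.7 CPM per kb, and the exon 2 peak at +14.3 kb had 5.11. None of these 3 Ikzf1 start peaks was called in any of the 4 comparisons of Tconv and naive cells. Log2 fold changes at the canonical start were -0.40 (adjusted p = 0.00868), -0.19 (0.16), -0.02 (0.879) and -0.10 (0.351) in HP1α WT, HP1α KO, HP1γ WT and HP1γ KO (edgeR). In intron 1 at +7.0 kb they were -0.32 (adjusted p = 0.0487), -0.27 (0.0736), 0.02 (0.802) and -0.17 (0.0797).

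The order of the 12 groups was read at each start peak as a description. The canonical Ikzf1 start ranged from 6.21 log2 CPM in HP1α WT naive cells to 5.33 in HP1α WT Tconv with Treg, the group with 2 kept libraries. In that order 10 of the 11 pairs of adjacent groups had overlapping libraries, and the same count held for the +7.0 and +14.3 kb peaks. At the Ikzf3 start all 4 naive groups stood above all Tconv groups, from 5.48 in HP1α KO naive cells to 5.17 in HP1γ KO naive cells. The next group, HP1α KO Tconv with Treg at 4.98, rested on 1 library, and the lowest, HP1α WT Tconv with Treg, had 3.76. There 9 of the 11 adjacent pairs overlapped.

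**Figure D3:**
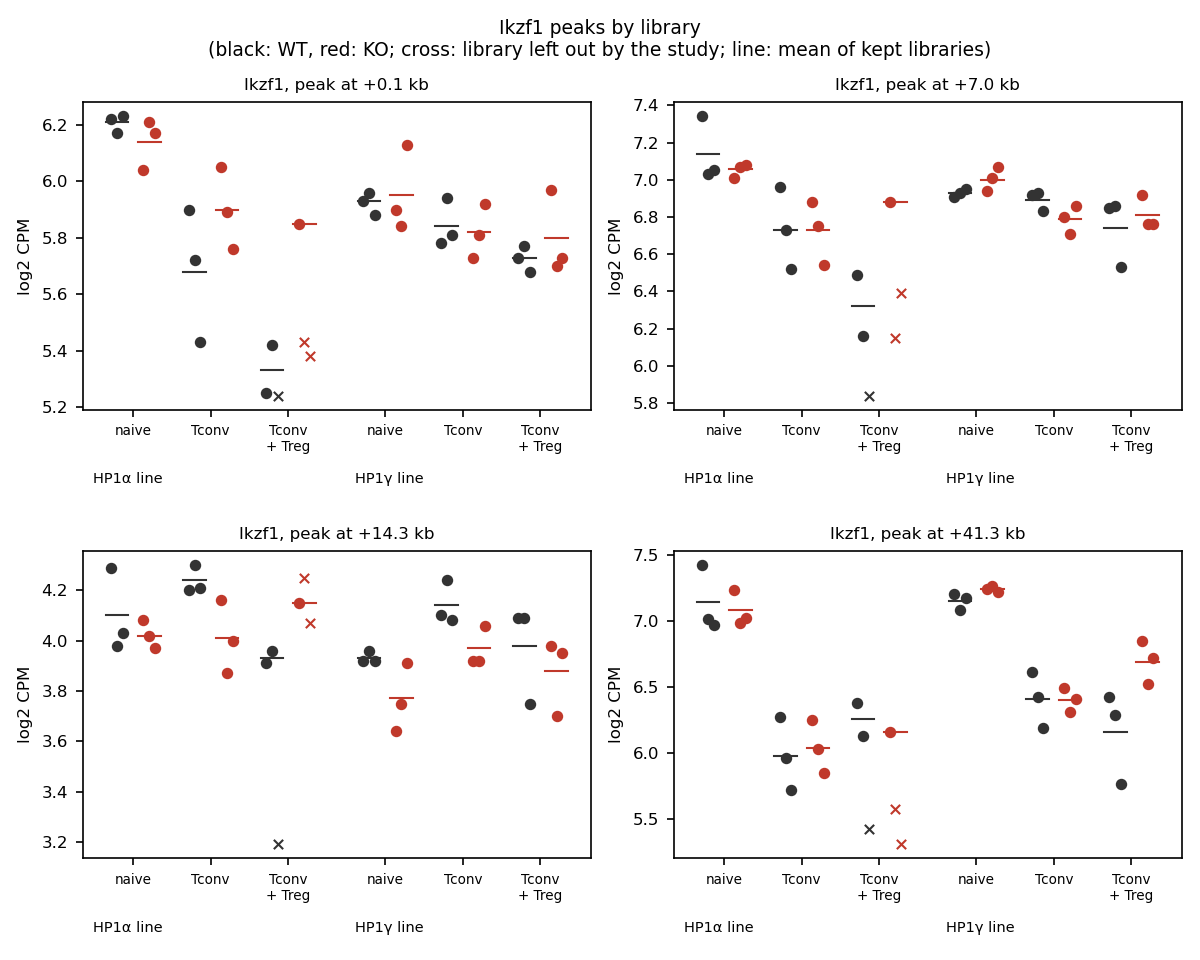
Log2 CPM of 4 Ikzf1 peaks in each library, drawn as for Ikzf3 (WT black, KO red, crosses for libraries left out by the study, lines for means of kept libraries). The start peaks at +0.1, +7.0 and +14.3 kb overlap between most groups, and the intron 3 peak at +41.3 kb is lower in Tconv than in naive cells of each line.

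The -17.8 kb element upstream of Ikzf1 (chr11:11617161-11618570) was the one Ikzf1 peak called in all 4 comparisons. Naive libraries held 3.41, 3.47 and 3.45 log2 CPM in HP1α WT and 3.32, 3.37 and 3.42 in HP1γ WT. Tconv held 1.62, 2.36 and 1.79 in HP1α WT and 1.55, 1.17 and 1.52 in HP1γ WT. The naive libraries were tightly grouped and lay above every Tconv library, with log2 fold changes of -1.54 ± 0.22 (SE, adjusted p = 8.58e-06, edgeR) and -1.90 ± 0.19 (adjusted p = 5.79e-08). KO cells gave -1.55 ± 0.18 (adjusted p = 8.36e-07) in the HP1α line and -2.20 ± 0.24 (adjusted p = 3.14e-07) in the HP1γ line.

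The adjacent -15.8 kb element (chr11:11619041-11620760) differed from it in direction. HP1γ WT naive libraries held 2.46, 2.42 and 2.69 log2 CPM and WT Tconv 3.77, 3.33 and 3.16, all higher. The log2 fold change of 0.99 (adjusted p = 0.00032, edgeR) fell just short of the fold threshold. HP1α WT gave 1.28 ± 0.23 (SE, adjusted p = 9.56e-05), although one Tconv library, at 2.37, lay within the naive range of 2.04 to 2.47. HP1α KO gave 0.76 (adjusted p = 0.00531) and HP1γ KO 0.38 (adjusted p = 0.249), neither of them called.

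Of the 27 Ikzf1 peaks, 19 were called in none of the 4 comparisons. In intron 3, the +25.6 kb peak was called higher in HP1γ WT Tconv, from 3.60, 3.68 and 3.87 to 4.72, 4.80 and 4.74 log2 CPM (log2 fold change 1.09 ± 0.12 SE, adjusted p = 1.12e-07, edgeR), and lost the call at 0.99 without WT naive replicate 1. The +41.3 kb peak, also in intron 3, was called lower in HP1α WT, from 7.42, 7.01 and 6.97 to 6.27, 5.96 and 5.72 (-1.04 ± 0.16, adjusted p = 2.79e-05). That call was lost at changes of -0.90 to -0.70 with library size scaling, trended offsets or GC offsets, at -0.92 with depth as a covariate, without WT Tconv replicate 3 (-0.95) and without WT naive replicate 1 (-0.82). Its values in the other comparisons were -0.98, -0.67 and -0.78 in HP1α KO, HP1γ WT and HP1γ KO. The +77.5 kb peak in intron 7 was called higher in HP1γ KO, from 3.13, 3.02 and 3.10 to 4.31, 3.77 and 4.15 (1.08 ± 0.19, adjusted p = 5.74e-05), with 0.97 and no call without KO Tconv replicate 1. Each of these 3 peaks passed the fold threshold narrowly. No peak of either gene was called by edgeR for an interaction of genotype with the step from naive cells to Tconv. This held in the HP1α line (0 at an unadjusted p under 0.05, 0% of all peaks called, 1.80% at that p) and in the HP1γ line (2 at an unadjusted p under 0.05, 0.0140% of all peaks called, 9.51% at that p). DESeq2 called none in either line.

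The second question was whether loss of HP1γ altered these elements. In naive cells 0 of the 46 peaks were called by edgeR and 0 by DESeq2, with 2 at an unadjusted p under 0.05 (0.140% of all peaks called, 8.98% at that p). In Tconv without Treg 0 were called by either tool, with 5 at an unadjusted p under 0.05 (3.35% of all peaks called, 19.6% at that p). In Tconv recovered with Treg 4 were called, 2 lower at Ikzf1 and 1 lower and 1 higher at Ikzf3. That was 8.7% of the 46 peaks, under the 11.9% of all peaks called in this comparison, so the count does not set these genes apart. Between HP1γ WT and KO Tconv with Treg the TSS peaks of Klrk1 and Itgam went from 2.41 to 0.12 and from 1.33 to 0.12, and those of Cebpa and Pax5 from 4.26 to 5.38 and from 2.61 to 3.21, and the part of these cell type markers was not tested. None of the 4 elements held a start, and the start peaks of both genes had log2 fold changes between -0.15 and 0.10 over the 3 comparisons of HP1γ KO and WT.

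**Figure D4:**
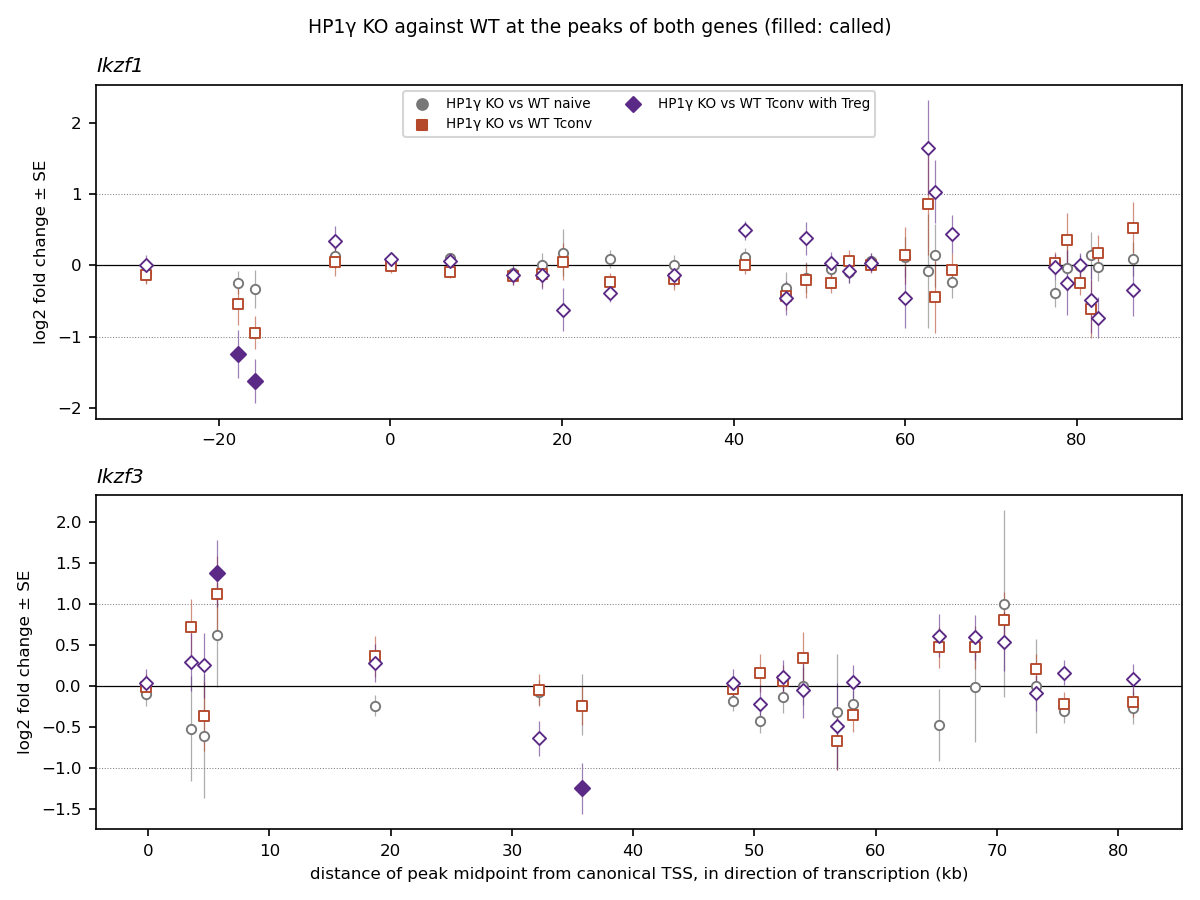
Log2 fold change (± SE) of HP1γ KO against WT at each peak by the distance in kb of its midpoint from the canonical TSS, for naive cells, Tconv and Tconv with Treg, with called peaks filled. The 4 filled symbols all belong to Tconv with Treg, at -17.8 and -15.8 kb of Ikzf1 and at +5.7 and +35.8 kb of Ikzf3.

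The -15.8 kb element of Ikzf1 was the most affected of the 46 by p in Tconv with Treg. WT libraries held 2.91, 3.12 and 2.57 log2 CPM and KO libraries 0.99, 1.73 and 1.03, so all KO libraries were lower. The log2 fold change was -1.62 ± 0.31 (SE, adjusted p = 0.00171, edgeR). In Tconv without Treg WT libraries held 3.77, 3.33 and 3.16 and KO libraries 3.02, 1.95 and 2.27, again without overlap, for a change of -0.94 ± 0.23 (adjusted p = 0.0206) that missed the fold threshold. Naive libraries held 2.46, 2.42 and 2.69 in WT and 2.52, 1.83 and 2.14 in KO, which overlapped (-0.33 ± 0.26, adjusted p = 0.757). The call with Treg held without each library in turn, with log2 fold changes from -1.95 to -1.44, and in Tconv without Treg the change passed both thresholds without KO replicate 1 (-1.30), WT replicate 2 (-1.01) or WT replicate 3 (-1.07).

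Its neighbour at -17.8 kb was the element called lower in Tconv than in naive cells. That element was lower still in HP1γ KO Tconv with Treg, at -0.06, 0.70 and 0.34 log2 CPM against 0.83, 1.63 and 2.45 in WT. The WT libraries spread widely and did not overlap with the KO libraries (-1.24 ± 0.34 SE, adjusted p = 0.0167, edgeR). Without WT replicate 3, the highest library, the change was -0.91 (adjusted p = 0.0571), without KO replicate 1 -1.02 (adjusted p = 0.0912) and without WT replicate 2 -1.22 (adjusted p = 0.0711). In Tconv without Treg the change was -0.54 (adjusted p = 0.334), and in naive cells -0.24 (adjusted p = 0.702).

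At Ikzf3 the +35.8 kb element, which was higher in Tconv than in naive cells, was lower in HP1γ KO Tconv with Treg. WT libraries held 3.61, 4.13 and 3.50 log2 CPM and KO libraries 1.43, 3.13 and 2.63, all lower, for a change of -1.25 ± 0.31 (SE, adjusted p = 0.0101, edgeR). The call was lost without KO replicate 1, the lowest library (-0.83, adjusted p = 0.0586), and without WT replicate 2, the highest (-1.04, adjusted p = 0.0737). Within KO cells it fell by 1.50 ± 0.29 (adjusted p = 0.00258) between Tconv without and with Treg, a call kept without each library in turn. In WT cells the same step gave -0.49 (adjusted p = 0.281), and the difference between genotypes, tested as an interaction, was -1.01 ± 0.40 (adjusted p = 0.339).

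The one Ikzf3 peak called higher, at +5.7 kb in intron 1, held 0.44, 0.31 and 1.46 log2 CPM in WT and 2.58, 1.09 and 1.92 in HP1γ KO Tconv with Treg. The libraries of the 2 genotypes overlapped (1.37 ± 0.41 SE, adjusted p = 0.0243, edgeR). The call was lost without KO replicate 1 (0.86), WT replicate 1 (1.22) or WT replicate 2 (1.18), with edgeR's earlier quasi-likelihood method (1.22, adjusted p = 0.0554) and with only the groups compared (1.36, adjusted p = 0.1). The Ikzf3 elements from +65.2 to +73.2 kb, which were higher in Tconv than in naive cells, were not called between the genotypes. The exon 7 peak had 3.74, 3.95 and 3.45 in WT and 4.36, 4.14 and 4.52 in KO with Treg. In Ikzf1, the +41.3 kb peak was higher in KO by 0.49 (adjusted p = 0.0109), from 6.42, 6.29 and 5.77 to 6.85, 6.52 and 6.72, and the +25.6 kb peak lower (-0.38, adjusted p = 0.047), both under the fold threshold.

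**Figure D5:**
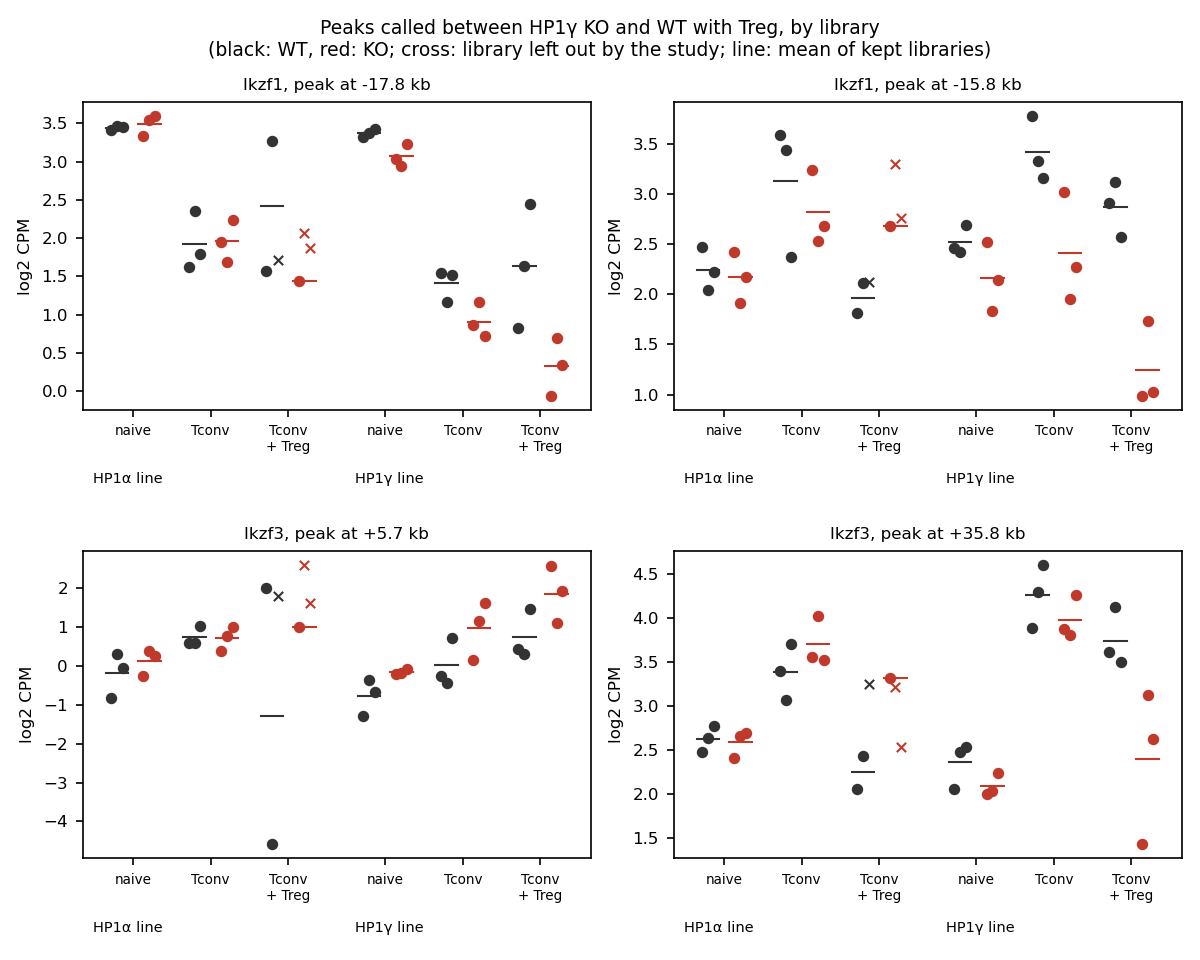
Log2 CPM in each library of the 4 peaks called between HP1γ KO and WT Tconv with Treg (WT black, KO red, crosses for libraries left out by the study, lines for means of kept libraries). Red points lie below black points in HP1γ Tconv with Treg at -17.8 and -15.8 kb of Ikzf1 and +35.8 kb of Ikzf3, and overlap with them at +5.7 kb of Ikzf3, where 1 HP1α library at -4.59 held 0 reads.

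Exposure to Treg was also compared within each genotype. In HP1γ WT cells 0 of 46 peaks were called by edgeR and 0 by DESeq2, with 7 at an unadjusted p under 0.05 (0.137% of all peaks called, 20.3% at that p). In HP1γ KO cells 3 were called, 6.52% of the 46 against 8.15% of all peaks. Beside the +35.8 kb peak of Ikzf3, the -15.8 kb peak of Ikzf1 was lower with Treg, from 3.02, 1.95 and 2.27 to 0.99, 1.73 and 1.03 log2 CPM (-1.22 ± 0.31 SE, adjusted p = 0.0133, edgeR). It lost the call without KO Tconv replicate 1 (-0.86) or KO Tconv with Treg replicate 1 (-1.04). The same step in WT cells gave -0.54 (adjusted p = 0.202), and the interaction was -0.68 ± 0.39 (adjusted p = 0.453). The +63.5 kb peak in intron 4 of Ikzf1 was called higher (1.39 ± 0.44, adjusted p = 0.0407) on overlapping libraries of 0.09, 0.47 and 0.49 without and 2.58, 0.30 and 1.30 with Treg. That call was lost without KO Tconv with Treg replicate 1 (0.44, adjusted p = 0.564) and without KO Tconv replicate 1 (1.27, adjusted p = 0.12), 2 (1.41, adjusted p = 0.0649) or 3 (1.50, adjusted p = 0.103). Over the HP1γ line 0 peaks of either gene were called for an interaction of genotype and Treg by edgeR or DESeq2 (4 at an unadjusted p under 0.05, 0.00140% of all peaks called, 12.8% at that p), so a difference between the genotypes in the response to Treg was not shown.

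HP1α loss called 0 of the 46 peaks by edgeR in naive cells (0 at an unadjusted p under 0.05, 0.00559% of all peaks called, 1.17% at that p) and 0 in Tconv (4 at an unadjusted p under 0.05, 0.0210% of all peaks called, 4.82% at that p). DESeq2 called 0 in both. In Tconv with Treg 1 KO and 2 WT libraries were kept, so only sizes of change are given for the kept libraries. The spread of the lone KO library could not be measured, and a test has to assume that it varied like the other groups of the fit. Of the 46 peaks 29 had log2 fold changes above 0 and 17 below 0, where 44.1% of all peaks lay above 0. All 46 values share the 1 KO library and are not separate observations. The Ikzf3 start held 4.98 log2 CPM in the KO library and a mean of 3.76 in the WT libraries, a log2 fold change of 1.18. With the left-out libraries returned it was 0.81 (adjusted p = 0.394, edgeR). It ranged from 0.09 to 0.98 when each of these 6 libraries was dropped in turn, so its size depended on single libraries. In the fit with all libraries 0 peaks were called by edgeR (3 at an unadjusted p under 0.05, 0.741% of all peaks called, 11.5% at that p) and 0 by DESeq2. With the kept libraries alone the change was 1.22 at the +35.8 kb element of Ikzf3. At the -15.8 and +77.5 kb peaks of Ikzf1 it was 0.84 and 0.94.

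Between HP1α WT Tconv with and without Treg 1 of 46 peaks was called, 2.17% against 6.77% of all peaks. The +77.5 kb peak of Ikzf1 went from 3.97, 3.78 and 3.51 to 2.93 and 1.70 log2 CPM (-1.04 ± 0.30 SE, adjusted p = 0.0438, edgeR). The lower library with Treg held 6 reads there, and the library the study left out, at 3.70, lay within the range without Treg. The call was lost without WT Tconv replicate 1 (-0.92), without WT Tconv with Treg replicate 1 (-2.21) and without WT Tconv with Treg replicate 2 (-1.03). In HP1α KO cells 0 peaks were called between these conditions by either tool (2 at an unadjusted p under 0.05, 0.548% of all peaks called, 8.54% at that p). The interaction of genotype and Treg called 0 by either tool (6 at an unadjusted p under 0.05, 0.0461% of all peaks called, 10.3% at that p).

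Other genes of the pathway were read in the same fits. Peaks of the other family members Ikzf2 (Helios), Ikzf4 (Eos) and Ikzf5 (Pegasus) were called in HP1γ WT Tconv against naive cells in 17 of 34 cases higher and 6 lower, with 24.5% of all peaks called higher and 22.0% lower. Ikzf2 held 29 of these peaks, and 9 of them were called higher in HP1γ KO than WT Tconv with Treg, where 6.48% of all peaks were called higher. In the HP1α line 0 of the 29 were called higher and 4 lower in KO than WT Tconv with Treg, where 1.63% of all peaks were called and KO was 1 library. In HP1α WT Tconv 12 of the 29 Ikzf2 peaks were called higher with than without Treg and 0 lower. Over all peaks 4.92% were called higher and 1.84% lower. The group with Treg held 2 kept libraries, of 12.7 and 1.49 M reads. One peak of Ikzf4, at +5.5 kb, was called lower in HP1γ KO with Treg (-1.11, adjusted p = 0.00929, edgeR). Of 54 peaks at 10 genes of NuRD subunits, the complex Ikaros recruits, 16 were called higher and 5 lower in HP1γ WT Tconv against naive cells. That was 38.9% of them, under the 46.5% of all peaks. In HP1γ KO against WT Tconv with Treg 1 was called higher and 2 lower, 5.56% against 11.9% of all peaks. The cereblon ligase genes had 8 peaks. Of these 1 was called higher in HP1γ WT Tconv (12.5% against 46.5% of all peaks) and 0 in HP1γ KO with Treg (11.9% of all peaks).

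Genes described elsewhere as bound or regulated by Ikaros or Aiolos had 134 peaks at 10 genes. In HP1γ WT Tconv against naive cells 63 were called higher and 28 lower, where 24.5% and 22.0% of all peaks were. In HP1γ KO against WT Tconv with Treg 10 were called higher and 14 lower, where 6.48% and 5.38% of all peaks were. In the latter comparison Il7r, the interleukin 7 receptor chain, had 8 peaks lower and 0 higher, and Tbx21, which encodes the Th1 regulator T-bet, had 2 lower and 0 higher. Il10, an anti-inflammatory cytokine, had 3 peaks higher and 0 lower, and Hes1, a Notch target, had 3 higher and 0 lower. Ifng had 1 higher and 2 lower, Il2 0 higher and 1 lower, and Bcl6, the regulator of follicular helper cells, 3 higher and 1 lower. The number of peaks of each gene is not given here, so counts by gene cannot be set against the shares of all peaks.

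Peaks within 250 kb of either gene body that belong to other genes gave the local background. In HP1γ WT Tconv against naive cells 7 of the 48 neighbours of Ikzf1 were called higher and 13 lower, with a median log2 fold change of -0.45, where 24.5% of all peaks were called higher and 22.0% lower. Of the 45 neighbours of Ikzf3, 2 were called higher and 11 lower, with a median of -0.13. HP1α WT cells gave 4 higher and 11 lower for Ikzf1, and 2 higher and 7 lower for Ikzf3 (24.9% and 17.5% of all peaks). In HP1γ KO against WT Tconv with Treg 3 neighbours of Ikzf1 were called higher and 2 lower, and 1 neighbour of Ikzf3 higher and 4 lower (6.48% and 5.38% of all peaks).

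Start peaks of other genes were ranked by how closely they followed those of Ikzf1 and Ikzf3 over the 33 kept libraries, among 12390 protein-coding genes. The pattern of the Ikzf1 intron 1 peak, its start peak with most reads, was most like those of Dgke (Pearson r = 0.943), Tasor (0.942), Anp32a (0.937), Elf4 (0.934) and Mrnip (0.934). The Ikzf3 start was most like Fam13b (0.954), Cbx2 (0.951), Rp9 (0.941), Gpsm1 (0.938) and Rasgrp2 (0.938). These libraries fall into naive and Tconv groups and share their depth and scaling, so the coefficients describe likeness and carry no test.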

How the data were processed

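ATAC-seq libraries were made by the authors from sorted cells. Per the study's methods and labels, reads were trimmed with Trim Galore 0.6.7, aligned to GRCm39 with BWA, deduplicated, and peaks were called in each library with HMMRATAC and merged with bedtools. The deposited table holds whole-number read counts per consensus peak, made by the authors with featureCounts 2.0.3 and not normalized. Peaks were assigned here with GENCODE M39. Peaks of uneven width share one table, and a wide peak can average over opposite changes.

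Counts were fitted with edgeR 4.0.16 (R 4.3.3; filterByExpr, TMM, quasi-likelihood F test, two-sided, Benjamini-Hochberg over all peaks), with 15 HP1α libraries kept by the study and 18 HP1γ libraries in separate fits. All 46 peaks of Ikzf1 and Ikzf3 passed the filter. A peak was called at adjusted p under 0.05 and absolute log2 fold change above 1. Levels are log2 CPM scaled over all 36 libraries with a prior count of 2, so a difference of means can depart from a fitted change. Standard errors were derived from the F statistics. Biological coefficients of variation were 26.6% (HP1α) and 22.2% (HP1γ). On simulated counts with 200 of 71508 peaks changed by 2 on the log2 scale, 74.5% were recovered for HP1γ KO against WT with Treg, with 7 false calls, and 24.5% of 200 in 71509 for HP1α, with 0. No 2 libraries of a group agreed within sampling noise.

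Peaks named with values were those holding a coding TSS, and for each comparison and gene the called peak with the smallest p in each direction or, with none called, the smallest p, as well as peaks called in at least 2 comparisons of KO and WT. Further peaks were named because they were called in a comparison described; they were chosen after their values were seen. The members, lists and tests were chosen with earlier results of these data known. Same-numbered libraries deviated together (every correlation above 0.1) between HP1α KO and WT naive cells (0.5, 0.25 and 0.27), HP1γ KO and WT Tconv with Treg (0.28, 0.15 and 0.32) and HP1γ WT Tconv with and without Treg (0.29, 0.2 and 0.23); the block changed no call there.

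Alternatives were library size scaling, loess offsets on abundance or GC content, DESeq2 1.42.0, no filter, only the groups compared, depth as a covariate, a replicate block, each library left out and, chosen after seeing the data, edgeR's earlier quasi-likelihood method. One further sequence is not reported here.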

Additional observations from a re-analysis of the deposited data

How the results depend on the processing

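The counts of called peaks in the 4 comparisons of Tconv and naive cells stayed within 1.5 times of the reported count under every alternative that was run, and none of the results changed direction. The comparisons with Treg were less stable. HP1γ KO against WT with Treg gave 4 calls, and 1 when only those groups were fitted, the -15.8 kb peak of Ikzf1. Left-out libraries gave 1 to 6 calls there, 0 to 3 for HP1γ KO against WT Tconv and 1 to 5 for HP1γ KO Tconv with against without Treg, where only the groups compared gave 0. HP1γ WT Tconv with against without Treg gave 1 call with trended offsets. For HP1α KO against WT with Treg, which rests on 1 kept KO library, counts of calls are not given. HP1α WT Tconv with against without Treg, reported as 1 call, gave 3 with DESeq2, 3 with the earlier quasi-likelihood method, 2 with library size scaling, and 0 with GC offsets, trended offsets, depth as a covariate or only the groups compared. Left-out libraries gave 0 to 2 there, 0 to 1 for HP1α KO against WT Tconv and 0 to 1 for HP1α KO Tconv with against without Treg. The causes were not tested.

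With a replicate block, HP1α WT Tconv with against without Treg gave 2 calls and HP1α KO Tconv with against without Treg 1 in place of 0, although the numbers there could not be shown to pair the libraries. HP1γ KO against WT with Treg kept all 4 calls under the block. No other count moved past 1.5 times. Library size scaling changed the span of the group means from 0.87 to 0.49, 0.82 to 0.44 and 0.47 to 0.73 at the +0.1, +7.0 and +14.3 kb peaks of Ikzf1 and from 1.73 to 1.37 at the Ikzf3 start. Assignment to the nearest start of any gene type gave 25 member peaks and gene body overlap alone 42. The HP1α groups with Treg held 2 kept WT libraries, 1 of them of 1.49 M reads, and 1 kept KO library of 50.7 M reads. Uneven depth and few libraries cannot be told apart there.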
